A study of Mus musculus with 2 samples.

Results

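The narrow ELF3 regions described here are intervals of called ELF3 signal on chromosomes 1 to 19. They are among the narrowest of their list and share no base with any NFKB2 region. The narrowest ELF3 region was 160 bp wide, and a region qualified if it exceeded that by at most 15 bp. Of the 68319 ELF3 regions, 3856 met both criteria and are called members here. The lists come from CUT&RUN, a method that directs a nuclease to a chromatin protein through an antibody and sequences the DNA it cuts free. It was applied to primary epithelial cells of renal tubules from wild-type mice. The cells had received the cytokines TNFα and IFNγ, and both libraries carry the label of batch 1. One library profiled ELF3 and 1 profiled NFKB2, so neither factor has a replicate, and no untreated cells were analysed here. IgG is the negative control named for the series, and its regions were not analysed here. The labels give no mouse age, dose or exposure time, and without an expression measurement the tubular identity of the cells could not be checked against marker genes.

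ELF3 is a transcription factor of the ETS family that is largely restricted to epithelia, where it contributes to differentiation and is induced by inflammatory cytokines. Its DNA-binding domain recognises a short core with the letters GGAA. NFKB2 encodes the p100 precursor, which is processed to p52, a subunit that pairs mainly with RelB in the non-canonical branch of NF-κB signalling. TNFα activates NF-κB. In CUT&RUN, a factor on an isolated short site releases a compact stack of fragments, whereas several sites close together or a broad open stretch release fragments over a wider interval.

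Members were selected on the measured width of the ELF3 regions and their overlap with NFKB2, so both, and the ELF3 signal that sets the width, are described and not tested. With 1 library per antibody there is no test across samples, and no p-value was computed. The 95% intervals (exact binomial for shares, exact Poisson for fragments) cover counting error only, and regions are not replicates. Positions are the deposited ones, counted from 1. Their sequence names belong to GRCm39, while the submitters' processing notes name mm10, so no gene, promoter or sequence was assigned to a region.

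Regions this narrow made up 5.88% of the 66702 ELF3 regions on chromosomes 1 to 19, and the members, which also lack NFKB2, 5.78%. They were 3856 of the 53417 that had no NFKB2 region. The narrowest NFKB2 region was 160 bp too, so the members sit at the lower end of what the lists hold. They were spread evenly over it, with 224 to 270 regions at each of the 16 widths. For comparison, the mean fragment of the ELF3 library was 121 bp long, as recovered from the region scores. Another 123 narrow ELF3 regions lay on other sequences, such as the sex chromosomes, and were left out by the selection.

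Most members had a weak signal. The fragments at each summit, the position of highest signal, were recovered from the deposited fold and −log10 p. The median member had 13 fragments (quartiles 10 and 17) at its summit, with a lowest value of 6 and a highest of 1125. For a single region, a count of 13 has an interval of 6.92 to 22.2, so neighbouring members in this ranking cannot be separated. Members with 6 or 7 fragments, next to the listing limit, numbered 222 (5.76%, interval 5.04 to 6.54). Among wider ELF3 regions without NFKB2 that share was 3.48% (3.32 to 3.65). Members with 20 or more numbered 629 (16.3%), those with 30 or more 82, and those with 50 or more 5. Over local background, the members' deposited fold had a median of 5.85 (quartiles 4.50 and 7.64) and the median −log10 q 7.0 (4.57 and 11.0).

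The wider ELF3 regions without NFKB2, 49561 in number, had a median of 20 fragments (quartiles 13 and 30), and 50.5% of them had 20 or more. The next class in width, the 13087 regions of up to 250 bp that were too wide to be members, is called intermediate here. It had a median of 16 (12 and 22), and 3.39% (3.09 to 3.72) of its regions had 6 or 7 fragments. Signal and width therefore moved together from class to class. Within the span of the members there was no such trend to see. The median was 12 to 14 fragments at every width in this span, and Spearman's rho of width and fragments across the 3856 members, which share 1 library and are not independent, was 0.0551.

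**Figure D1:**
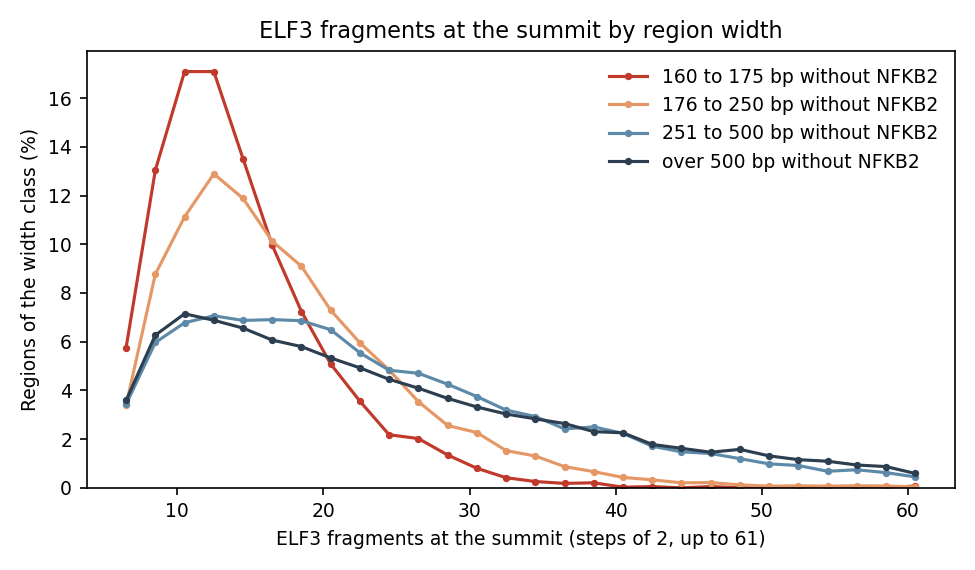
ELF3 fragments at the summit (x axis, in steps of 2, values above 61 not drawn) as the percentage of regions in each width class (y axis), for ELF3 regions without NFKB2 on chromosomes 1 to 19. The members, with a median of 13 fragments, form the highest and narrowest peak, and the intermediate class, with a median of 16, has a longer tail to the right.

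A small number of members carried a strong signal in a very short interval. The local background, the fragments the caller expected at the summit from the control, never fell below 1.22, a value termed the floor. Among members at that floor, the strongest was on chromosome 4 at 10118070 to 10118241. It had 47 fragments (34.5 to 62.5) and a fold of 21.6. Its nearest ELF3 region, 6.08 kb away, had 8 fragments, and the nearest NFKB2 region was 449 kb away. The second, at 143679403 to 143679577 of chromosome 1, had 46 fragments (33.7 to 61.4) and a fold of 21.1. It was 26.3 kb from an ELF3 region of 528 bp and 42 fragments that does carry NFKB2. These 2 regions had the same strength within counting error but unlike surroundings, one far from NFKB2 and one with an NFKB2-bearing ELF3 region as its neighbour.

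Both members that followed had 42 fragments (30.3 to 56.8). The one on chromosome 3 at 29801431 to 29801605 was 10.4 kb from the next ELF3 region, and the one on chromosome 6 at 24350995 to 24351165 was 2.07 kb from a region of 1038 bp with 30 fragments. The fifth, on chromosome 10 at 103279013 to 103279178, had 40 fragments (28.6 to 54.5) and stood alone. Its nearest ELF3 region was 73.7 kb away and its nearest NFKB2 region 2398 kb away. All 5 intervals overlap, so the order among these regions is not resolved. The fewest fragments of any listed NFKB2 region at the floor were 8, so NFKB2 signal below about that level at these sites would not be seen.

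The member of highest fold, 51.5, was unlike all others. It lay on chromosome 6 at 49213387 to 49213549, a width of 163 bp, and had 1125 fragments (1060 to 1193) over a local background 17 times the floor. The control signal at that position was thus raised too. No other member exceeded 62 fragments. The 4 that had 50 or more besides it, named after their values were seen, also stood above the floor. On chromosome 14 at 43215071 to 43215245 there were 62 fragments at 3.24 times the floor. On chromosome 19 at 22829300 to 22829460 there were 61 at 1.62 times, on chromosome 3 at 37535735 to 37535908 60 at 1.62 times, and on chromosome 5 at 26234511 to 26234676 60 at 4.87 times. Thus all 5 members with 50 or more fragments had a raised background; its part in their counts was not tested.

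Values just inside and just outside the width limit overlapped. Of the widest members, those of highest −log10 q were the regions on chromosomes 1 and 3 with 46 and 42 fragments and the one on chromosome 14 with 62. Of the regions without NFKB2 that exceeded the limit by 1 bp, the first was at 120782990 to 120783165 of chromosome 13, where 152 fragments stood on a background 14.6 times the floor. The next, both at the floor, had 44 fragments at 98620189 to 98620364 of chromosome 11 and 32 at 125633147 to 125633322 of chromosome 3.

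The control signal under the members was mostly not raised. The local background was at the floor for 2750 of 3856 members (71.3%, interval 69.9 to 72.7), against 70.2% of all ELF3 regions without NFKB2. It was 2 or more times the floor at 188 members (4.88%, 4.22 to 5.60), against 5.78% (5.58 to 5.99) of the wider ones. In 779 of the 3856 members the raised background equalled a whole number of scaled control fragments (1 fragment being worth 0.993, within 0.003 of a fragment). Control coverage at the summit itself would give such a value, but its part was not tested. No count for other ELF3 regions stands beside it, so nothing particular to the members can be read from it. The share at the floor was lower among stronger members, 80.0% (76.9 to 82.9) at 6 to 9 fragments and 64.4% (60.2 to 68.4) at 20 to 29. Intermediate regions without NFKB2 had 79.5% and 68.0% in the same bands. The part of the listing limit, which asks for more fragments where the background is higher, was not tested.

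Stronger members had their summit nearer to the middle. In 1643 members (42.6%, 41.0 to 44.2) the summit fell in the middle 20% of the region's length, against 28.4% of all ELF3 regions without NFKB2 and 41.4% (40.6 to 42.3) of the intermediate ones. The share was 21.7% (18.7 to 24.8) among members with 6 to 9 fragments, 40.4% at 10 to 14, 51.9% at 15 to 19 and 59.0% (54.8 to 63.2) at 20 to 29. In base pairs, the median distance from summit to middle was 35 bp in the weakest band and 13 bp at 20 or more fragments. The summit fell within 10% of the length from either end in 103 members (2.67%, 2.19 to 3.23), against 1.96% (1.73 to 2.22) of intermediate and 13.6% of all wider regions. Summits of weak members thus lay almost anywhere in the region and those of stronger ones near its centre. In intermediate regions the share rose likewise, from 15.9% to 53.8% over these bands.

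**Figure D2:**
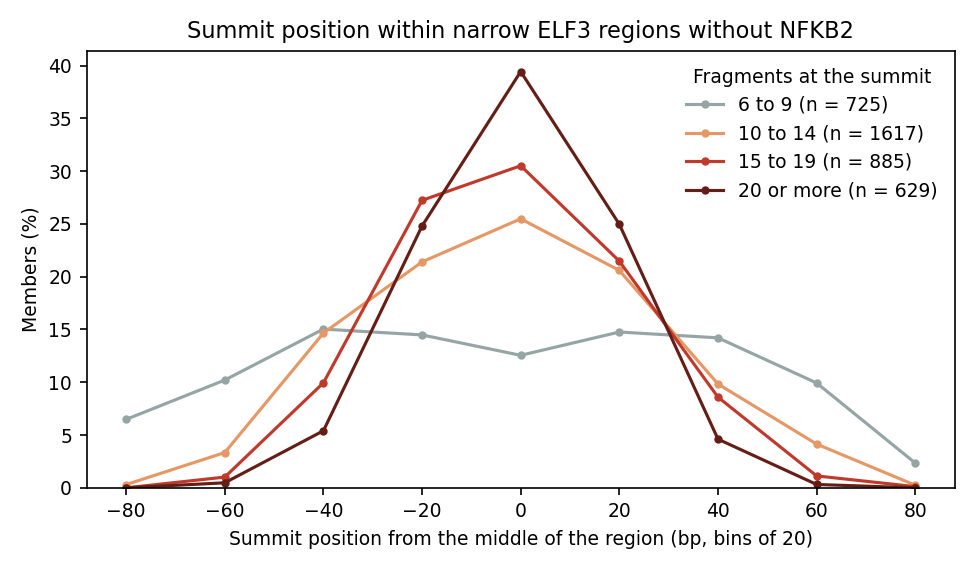
Position of the summit relative to the middle of the region (x axis, bp, bins of 20 bp) for members in 4 bands of fragments, as the percentage of the band (y axis). The line for 20 or more fragments rises to 39.4% in the central bin, whereas that for 6 to 9 fragments stays between 12.6% and 15% over the middle 5 bins.

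NFKB2 was rarely found at a narrow ELF3 region in each band of ELF3 signal up to 29 fragments, above which narrow regions were few. Over all ELF3 regions on chromosomes 1 to 19, 19.9% shared 1 bp or more with NFKB2. Of the 3924 as narrow as the members, before those with NFKB2 were left out, 68 did (1.73%, 1.35 to 2.19). This share is what the selection rests on, and it is given to show how it changes with signal. At 6 to 9 ELF3 fragments it was 1.36% (0.654 to 2.49), at 10 to 14 it was 1.82% (1.23 to 2.59), at 15 to 19 it was 1.88% (1.10 to 3.0), and at 20 to 29 it was 1.62% (0.743 to 3.05). At 30 to 49 fragments 2 of 79 narrow regions had NFKB2 (2.53%, 0.308 to 8.85). The 5 intervals overlap, and no rise with ELF3 signal was detectable among the narrow regions. The interval at 30 to 49 fragments also takes in the 4.85% of intermediate regions in that band, so a rise like theirs could not be seen.

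In wider regions the same bands gave a steep rise. ELF3 regions over 500 bp had NFKB2 in 3.51% (2.73 to 4.44) of cases at 6 to 9 fragments, 7.91% at 10 to 14, 15.1% at 15 to 19, 26.7% at 20 to 29 and 43.1% (42.0 to 44.3) at 30 to 49. Regions over 250 and up to 500 bp went from 2.79% to 18.7%, and intermediate ones from 1.36% to 4.85% (3.66 to 6.30). At 50 or more fragments the shares were 66.6%, 36.9% and 15.1% (14 of 93, 8.48 to 24), while 0 of 5 narrow regions had NFKB2, too few to place them. With 20 or more fragments, 11 of 640 narrow regions carried NFKB2 (1.72%, 0.861 to 3.05), against 31.5% of all ELF3 regions with that many and 46.5% (45.8 to 47.2) of those over 500 bp. The group of 20 or more fragments holds more high counts among wider regions, so the bands are the closer comparison. Within the bands from 15 to 49 fragments the share was in the order of width. At 6 to 14 fragments the narrow and intermediate classes did not follow that order, with 1.36% for both at 6 to 9, and 1.82% against 1.67% at 10 to 14.

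A wider region offers more bases for an overlap, so measures taken at the ELF3 summit are described too. A summit inside an NFKB2 region is itself an overlap. These measures thus rest on values the selection used and are not separate support. The ELF3 summit lay inside an NFKB2 region in 1.72% of narrow regions with 20 or more fragments (0.861 to 3.05) and in 43.0% (42.3 to 43.7) of those over 500 bp, against 18.2% over all ELF3 regions of any signal. An NFKB2 region within 250 bp of the ELF3 summit was present in 1.72% and 45.1%. For the narrow regions, overlap and both of these measures gave the same 11 of 640. In the closer comparison, the band of 20 to 29 fragments, the summit lay inside an NFKB2 region in 1.62% and 22.2%. The difference between the width classes was about as large by these measures as by overlap. Wider regions hold more fragments in total at the same summit count, and how far the total rather than the width goes with NFKB2 was not tested.

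**Figure D3:**
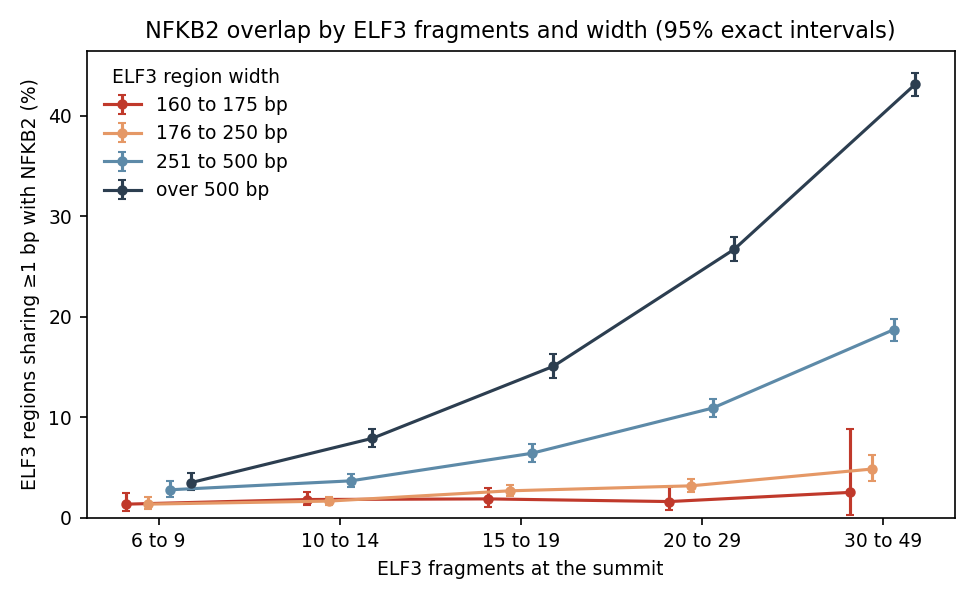
Percentage of ELF3 regions on chromosomes 1 to 19 that share 1 bp or more with an NFKB2 region (y axis) by ELF3 fragments at the summit (x axis, counts of 50 or more not drawn), for 4 width classes, with exact 95% binomial intervals as bars. The line for the narrowest class stays between 1.36% and 2.53%, and the line for regions over 500 bp climbs from 3.51% to 43.1% at 30 to 49 fragments.

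The 68 narrow regions that did carry NFKB2 resembled the members in ELF3 signal. They had a median of 13.5 fragments (quartiles 11 and 17.2) and at most 33. Their nearest other ELF3 region was a median of 5.64 kb away (2.37 and 10.9), against 7.64 kb for the members. With only 68 regions, this difference was not examined further.

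Members had their nearest listed ELF3 region somewhat farther away than wider ELF3 regions without NFKB2 did. The distance to the nearest other ELF3 region had a median of 7.64 kb (quartiles 3.29 and 18.6) for members and 6.27 kb (2.66 and 15.6) for the wider regions. An ELF3 region within 2 kb was found at 503 members (13%, 12 to 14.1), against 17.1% of all ELF3 regions without NFKB2 and 17.4% (17.1 to 17.7) of the wider ones. The smallest gap between any ELF3 regions in the list was 1001 bp, so signal closer than that may have been joined into a wider region. Selection on width may thus also select on spacing, and its part in these distances was not tested. The order held in each of the 4 bands from 6 to 29 fragments: at 10 to 14 fragments the median distance was 7.63 kb for members, 7.21 kb for intermediate regions, 6.25 kb for those over 250 and up to 500 bp, and 5.59 kb over 500 bp. At 30 to 49 fragments, where there were 77 members, it was 7.76 kb against 8.0 kb for intermediate regions, so the order of the narrowest classes did not hold there.

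The neighbours of the members were ordinary ELF3 regions. The nearest ELF3 region of a member had a median of 21 fragments and a width of 396 bp, and it was the stronger of the pair for 2785 members (72.2%), against 54.1% of the wider regions, which themselves hold more fragments. It carried NFKB2 for 672 members (17.4%, 16.2 to 18.7), close to the 18.1% of all ELF3 regions without NFKB2. That share was 20.5% (17 to 24.3) where the neighbour was 1 to 2 kb away, and 6.48% (2.65 to 12.9) where it was over 100 kb away. Wider regions without NFKB2 gave 22.6% and 6.91% at the same distances. The nearest neighbour was itself a member for 262 members (6.79%, 6.02 to 7.64), against 5.63% (5.43 to 5.83) of the wider regions. It was a member for 5.86% (5.46 to 6.28) of intermediate regions, an interval that overlaps that of the members. Members can be each other's nearest region, which these intervals make no allowance for.

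**Figure D4:**
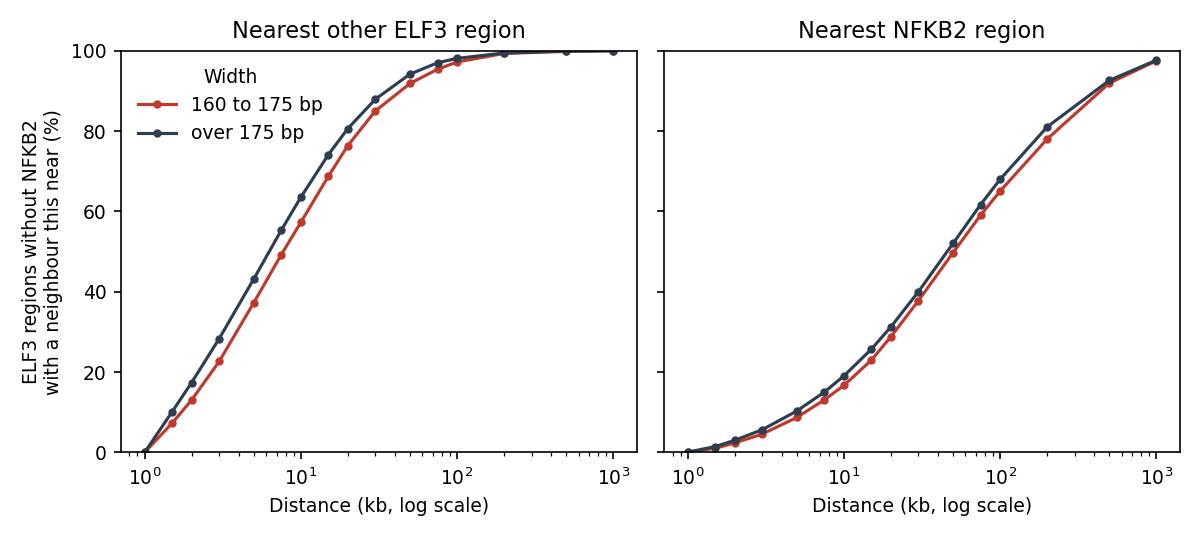
Percentage of ELF3 regions without NFKB2 (y axis) whose nearest other ELF3 region (left) or nearest NFKB2 region (right) lies within the distance on the x axis (kb, log scale), for members and for wider regions. From 1.5 to 500 kb the curve of the members runs below that of the wider regions, with 37.3% against 43.2% having an ELF3 region within 5 kb. Intermediate regions, not drawn apart, had 38.8%.

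NFKB2 regions lay at a distance from most members. The nearest NFKB2 region was a median of 50.6 kb away (quartiles 16.8 and 168). The median was 51.1 kb for intermediate regions and 45.9 kb (14.5 and 143) for all wider regions without NFKB2. An NFKB2 region lay within 10 kb for 643 members (16.7%, 15.5 to 17.9), against 18.9% of all ELF3 regions without NFKB2, and 19% (18.7 to 19.4) of the wider ones. Intermediate regions had 16.5% (15.9 to 17.2), an interval that takes in the value of the members. Among members the share was 19.7% (16.9 to 22.8) at 6 to 9 fragments, 17.1% (15.3 to 19) at 10 to 14, 14.4% (12.1 to 16.8) at 15 to 19 and 15.7% (12.8 to 19) at 20 to 29. The interval of the weakest band was apart from that at 15 to 19 fragments but not from that at 20 to 29. The share was also highest at 6 to 9 fragments in the wider classes, at 20.3% for intermediate regions, 22.2% for those over 250 and up to 500 bp, and 25.7% for those over 500 bp.

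An NFKB2 region within 1 kb was present at 3 members (0.0778%, 0.0160 to 0.227), a share like the 0.0847% of wider regions without NFKB2. Listed ELF3 regions were at least 1001 bp apart. An NFKB2 region that near could thus share bases with another ELF3 region only by reaching beyond that gap. The part of the listing in this share was not tested. Within 2 kb, NFKB2 was present at 91 members (2.36%, 1.90 to 2.89), against 3.02% of the wider regions. Intermediate regions had 2.32% (2.06 to 2.59), a value inside the members' interval. The 3 members with NFKB2 within 1 kb, named after their values were seen, had 6 to 10 fragments. On chromosome 7 at 101099321 to 101099485, ELF3 had 7 fragments (2.81 to 14.4), and an NFKB2 region of 789 bp began 208 bp away. On chromosome 7 at 105130707 to 105130880 there were 6 fragments and an NFKB2 region at 218 bp. On chromosome 1 at 63152113 to 63152284 there were 10 fragments, and an NFKB2 region of 689 bp and fold 16.3 lay at 942 bp, on the neighbouring ELF3 region. Among members with 30 or more fragments, chromosome 18 left out, the one nearest to NFKB2 was on chromosome 13 at 64577247 to 64577414, with 39 fragments. It was 2.62 kb from an NFKB2 region that lies within an ELF3 region of 1216 bp and 116 fragments.

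At the other extreme, 108 members (2.80%, 2.30 to 3.37) had no other ELF3 region within 100 kb, against 1.90% (1.78 to 2.02) of the wider ones. Intermediate regions had 2.56% (2.30 to 2.84), a value inside the members' interval. The most isolated member, at 10802598 to 10802768 of chromosome 5, had 14 fragments (7.65 to 23.5) and no ELF3 region for 951 kb. The next, chromosome 18 left out, had 10 fragments and a gap of 769 kb at 8096008 to 8096175 of chromosome 7, and 13 fragments and a gap of 693 kb at 25931505 to 25931669 of chromosome 1. All 3 were at the floor and had signals like the median member. They were named after their values were seen.

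The members were spread over all 19 chromosomes in much the same proportions as wider ELF3 regions without NFKB2. Per Mb of the stretch with ELF3 regions, their number was 1.26 on chromosome 14, the lowest, and 2.21 on chromosome 19, the highest. The median was 13 or 14 fragments on every chromosome. On 18 of 19 chromosomes the interval of the members' share overlapped that of the wider regions. The exception was chromosome 13, which held 186 members (4.82%, 4.17 to 5.55) and 3186 wider regions (6.43%, 6.21 to 6.65). The share on chromosome 13 was 5.59% (5.21 to 6.0) for intermediate regions, 6.23% for those over 250 and up to 500 bp, and 7.20% (6.83 to 7.58) for those over 500 bp. It was thus in the order of width. With only members of −log10 q of 5 or more, the members' share was 5.39% (4.55 to 6.32), and its interval met that given for all wider regions. The intervals make no allowance for the comparison of 19 chromosomes.

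**Figure D5:**
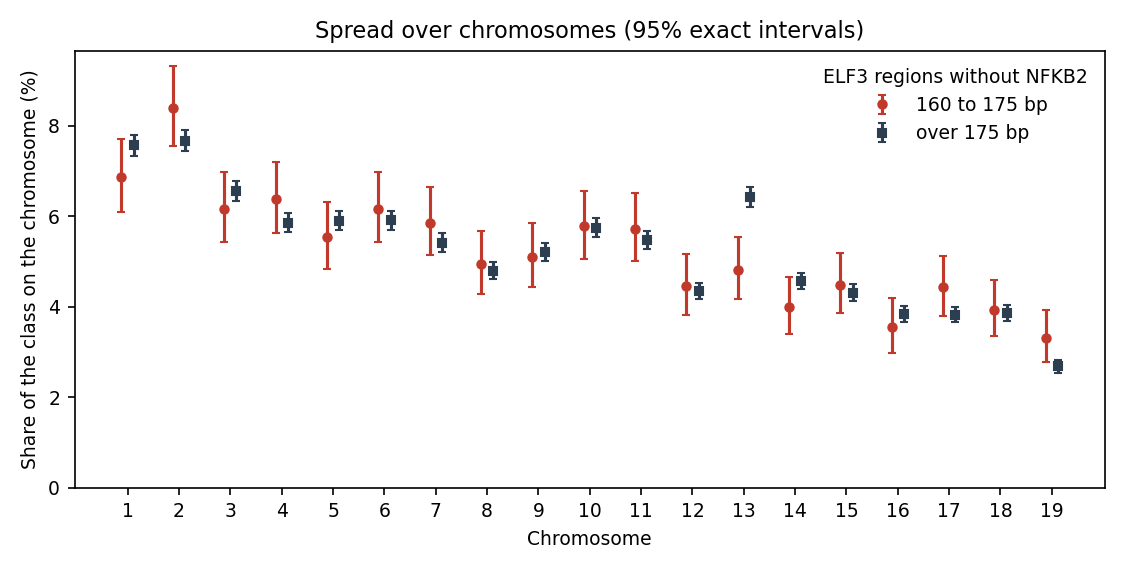
Share of each class of ELF3 regions without NFKB2 found on each chromosome (y axis, %), for members and for wider regions, with exact 95% binomial intervals as bars. The intervals are apart on chromosome 13 alone, at 4.82% and 6.43%.

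Nearness to NFKB2 varied between chromosomes. An NFKB2 region within 10 kb was found for 22.8% (16.7 to 29.8) of members on chromosome 17 and 22.6% (17.3 to 28.7) on chromosome 11, but for 10.4% (6.06 to 16.3) on chromosome 14 and 11.2% (7.32 to 16.2) on chromosome 5. Wider regions without NFKB2 had 22.1%, 27.5%, 18.2% and 19.7% on these chromosomes. On chromosomes 14 and 5 the values of the wider regions lay above the members' intervals, and on chromosomes 17 and 11 within them. The 4 chromosomes were picked for their high and low values.

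Members were few per Mb, and their number varied from bin to bin. Of 2468 bins of 1 Mb, 773 (31.3%) held no member, 592 held 1, and 123 held 5 or more, with 9 at most and 1.56 on average. These counts were not set beside those of wider regions. With chromosome 18 left out, 3 stretches of up to 100 kb held 5 members, again singled out after the values were seen. On chromosome 5, the stretch from 90736918 to 90833219 had members with 28, 20, 27, 14 and 9 fragments in order of position, among 16 ELF3 regions of which 2 carried NFKB2. On chromosome 6, from 33769595 to 33867379, they had 17, 11, 10, 14 and 15 fragments among 9 ELF3 regions, of which 2 carried NFKB2. On chromosome 8, from 124338423 to 124411793, they had 14, 14, 12, 17 and 20 among 10 ELF3 regions, none of which carried NFKB2. The stretch on chromosome 8 had all 5 members at the floor, and the other two had 3 each.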

How the data were processed

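CUT&RUN region lists of 2 libraries, 1 for ELF3 and 1 for NFKB2, were used, grouped by the labels. The submitters' processing notes name MACS2 as the caller; which version, settings and control it had, and which aligner preceded it, is not given in the sources used here. In 99.98% of ELF3 regions, the deposited score is −log10 q times 10 with decimals dropped. The fold deposited for a region is a ratio, its summit against the local background, and the deposited −log10 p and −log10 q were likewise taken at the summit.

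The caller adds 1 to signal and background in the fold and scores the summit by a Poisson probability. Both values were therefore solved for whole fragments and a background, within 0.01 in −log10 p (scaled up above 100) for all 66702 ELF3 regions on chromosomes 1 to 19. The recovered depth was 10.1 fragments per kb. The recovery and the distance function were tested on simulated data. Lowest −log10 q was 1.02 for ELF3 and 1.01 for NFKB2.

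The coordinates do not belong to the one annotation at hand (GRCm38.p6): 3673 pairs of ELF3 summit and gene end lay within 500 bp, against 7527 at the best shift of each chromosome, and the unshifted coordinates were best on 1 of 19 chromosomes. Gene, promoter, motif, GC and repeat comparisons were therefore not run.

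Members and lists were chosen with earlier results of these data known. Named regions are the 5 members with most fragments at the floor, the 3 of highest fold, and 3 on each side of the width limit, chromosome 18 left out; others are marked. Computation used Python 3.11.15, scipy 1.17.1 and pandas 2.3.3.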

Additional observations from a re-analysis of the deposited data

How the results depend on the processing

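Settings that restrict members to the floor, and all settings for the NFKB2 shares at 20 or more fragments and for chromosome 13, were added after the data were seen; 36 of 44 values stayed within the interval of the reported value (for the number of members, within 1.5 times). With a width of up to 200 bp there were 8931 members and a median of 14 fragments. With −log10 q of 5 or more the median was 15 fragments and the share at the floor 73.2%; the cause was not tested. With that limit on the members alone, their share on chromosome 13 was 5.39%, within the interval of the reported value. The interval of this share then met that of all wider regions. The share of members with NFKB2 nearby was 8.71% within 5 kb and 49.7% within 50 kb. For ELF3 regions over 500 bp with 20 or more fragments, the NFKB2 share was 43.0% by summits inside NFKB2 regions and 45.1% within 250 bp of the summit. A width of up to 150 bp left no region, since none is narrower than 160 bp, and alternatives for motifs, GC content, repeats and gene starts were not run. No paired analysis was possible because each antibody has 1 library. Regions with fewer fragments than the listing limit (6 at the floor for ELF3, 8 for NFKB2) or under 160 bp are not listed, so a missing NFKB2 region is not absence of NFKB2.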
